A study of Mus musculus with 6 samples.

Results

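The colony-stimulating factor genes described here are 10 genes of the 56980 in the deposited count table, taken by symbol: the receptor genes Csf1r, Csf2ra, Csf2rb, Csf2rb2, Il3ra and Csf3r, and the ligand genes Csf1, Il34, Csf2 and Csf3. Their RNA was measured by sequencing in monocytes sorted from B16F10 tumours, a transplanted mouse melanoma line that carried the fluorescent protein mCherry in this series. The gate took CD11b+ cells with much Ly6C and without Ly6G. All samples have a wild-type genotype, and no source used here gives the age or sex of the mice. The treatment label of 3 samples is LNP-GFP, used here as the control, and that of the other 3 is LNP-Gsdme; LNP is the usual short form of lipid nanoparticle. The title of the series speaks of delivering mRNA for gasdermin E, a pore-forming protein that can start lytic cell death, into the tumour, and GFP is a fluorescent protein with no such activity. The question was which genes of the sorted monocytes differ in expression after LNP-Gsdme. Whether each library is a separate animal is not stated, and a p-value here reflects no more than the variation among these samples, which may be technical. The dose, the time of collection and the number of animals are not given either.

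Colony-stimulating factors control the production, survival and maturation of myeloid cells. CSF1 (M-CSF) and IL-34 bind the receptor tyrosine kinase CSF1R, on which many macrophages depend. GM-CSF, the product of Csf2, binds its own alpha chain (Csf2ra) together with the beta common chain (Csf2rb), which signals through JAK2 and STAT5. IL-3 binds Il3ra with either the beta common chain or the product of Csf2rb2, a beta chain that mice have in addition and that serves IL-3 alone. G-CSF, the product of Csf3, acts through CSF3R and drives neutrophil production.

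The libraries held 20233559 to 22932095 counts for LNP-GFP and 15991826 to 18751784 counts for LNP-Gsdme. Summed markers of Ly6C-high monocytes stood at 6186 to 6964 CPM (counts relative to the scaled library total) in LNP-GFP and 6061 to 7860 CPM in LNP-Gsdme. Most of the LNP-GFP sum was Lyz2, which led that list. Lyz2 averaged 3646 CPM in LNP-GFP and 2683 CPM in LNP-Gsdme and did not pass (edgeR adjusted p = 0.120). The median log2 fold change of the list was -0.21. Ly6c2, second over all libraries, averaged 245 CPM in LNP-GFP and 1543 CPM in LNP-Gsdme (edgeR adjusted p = 0.00219); of the 10 markers 3 rose and 1 fell. The neutrophil surface marker Ly6g was at 0 to 0.366 CPM in LNP-GFP and 0.155 to 0.618 CPM in LNP-Gsdme. Markers of other cells were present: 8 fibroblast genes (led by Col1a1 and Col3a1) summed to 9043 to 10114 CPM in LNP-GFP and 2154 to 5602 CPM in LNP-Gsdme. The 7 melanoma genes (led by Dct and Tyrp1) summed to 324 to 1752 CPM and 124 to 724 CPM, and the 10 NK and T cell genes (led by Gzmb and Nkg7) to 203 to 760 CPM and 699 to 960 CPM. None of the markers of these 5 cell types was at 0 counts in all libraries, although Ly6g had none in LNP-GFP 1 and Ncr1, an NK cell marker, none in LNP-GFP 2. In such bulk samples, fewer cells of a type and less RNA per cell cannot be told apart.

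Il3ra rose in LNP-Gsdme and Csf3 fell, and the other 8 members did not pass the test (edgeR's quasi-likelihood test, p adjusted by Benjamini-Hochberg over 16010 genes, threshold 0.05). Over all genes tested, 6.30% were higher and 5.32% lower by the same rule, so 1 member of 10 in each direction was near that background. The CPM values of the groups did not overlap for 2 members that were higher (Il3ra, Csf2ra) and 3 that were lower (Csf1r, Csf2rb2, Csf3), against 19.6% and 18.2% of all genes. The median log2 fold change, LNP-Gsdme over LNP-GFP, was -0.39 over the 10 members and -0.01 over all genes tested.

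**Figure D1:**
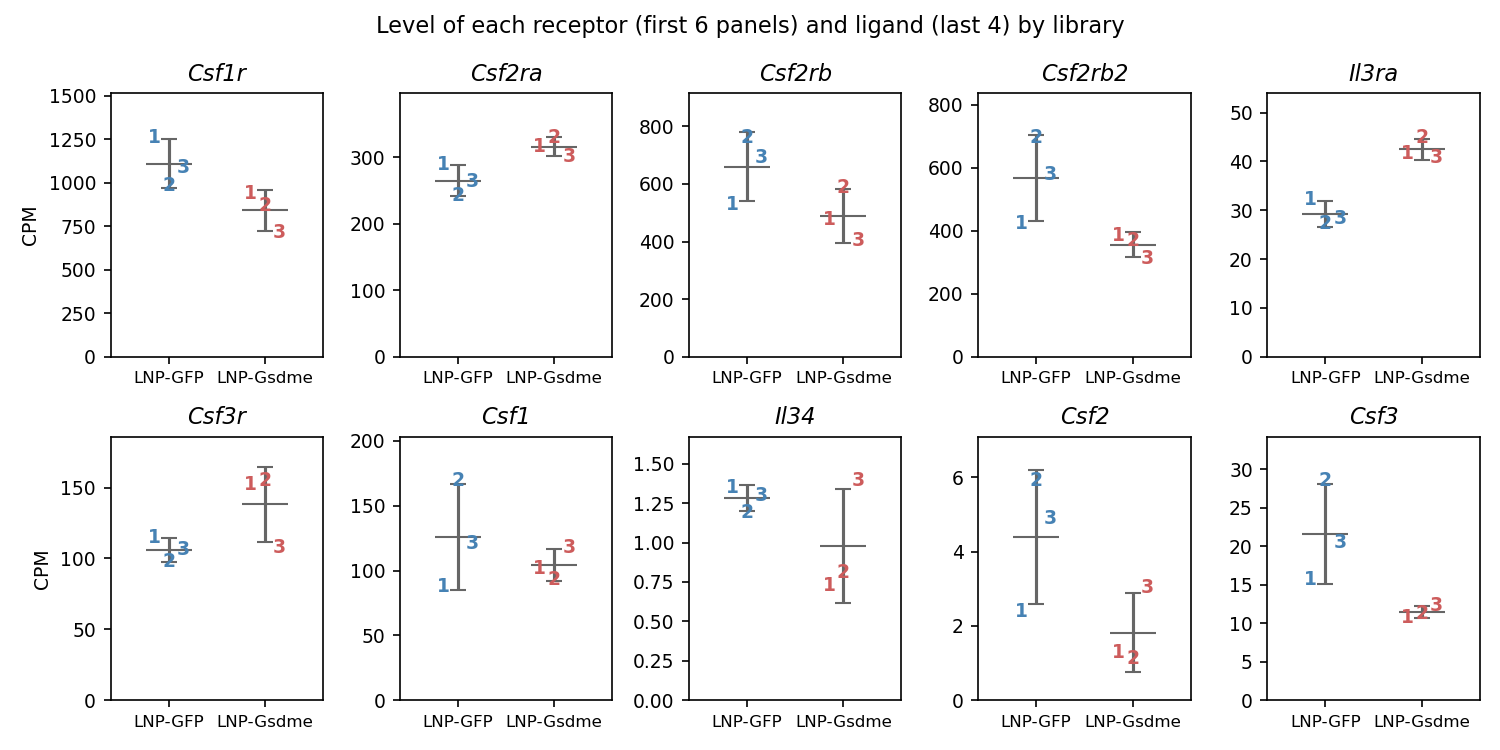
CPM of each member on a linear axis from 0; each digit is the replicate number of 1 library, placed at its value, and the grey line and bars are the mean and SD of 3 libraries. Il3ra and Csf2ra lay above all LNP-GFP libraries in each LNP-Gsdme library, and Csf1r, Csf2rb2 and Csf3 lay below.

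**Figure D2:**
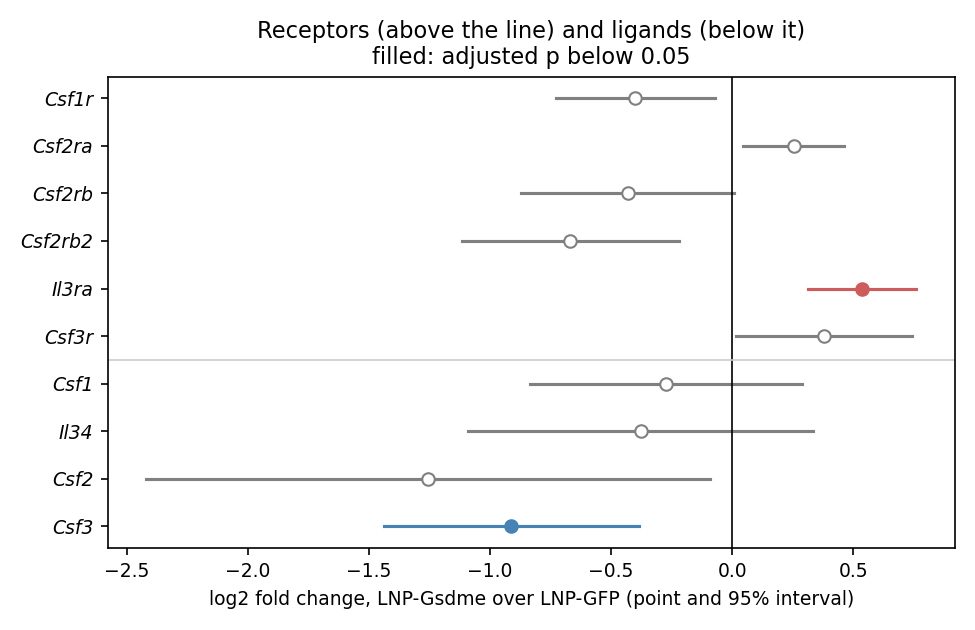
Log2 fold change of each member (x axis, LNP-Gsdme over LNP-GFP) with its 95% interval from edgeR; filled points passed the test. Il3ra (0.54) and Csf3 (-0.91) are the filled points, and the intervals of Csf2rb, Csf1 and Il34 include 0.

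Levels of different genes were compared as CPM per kb of merged exon, here over unscaled library totals. Csf1r was the most abundant member in LNP-GFP at 190 ± 26.2 (SD, n = 3) on that scale. Below it came Csf2rb2 at 118 ± 27.2, Csf2ra at 91.3 ± 8.96 and Csf2rb at 89.6 ± 15.4, whose libraries overlapped from each to the next. Csf3r (29.1 ± 2.66), Csf1 (23.5 ± 7.40) and Csf3 (15.1 ± 4.36) followed, again with overlap between neighbours. Il3ra (9.75 ± 0.973), Csf2 (5.43 ± 2.18) and Il34 (0.647 ± 0.0484) were lowest, and each of these was separate from the next above it. In LNP-Gsdme Csf1r was again highest at 147 ± 17.1, but Csf2ra was next at 111 ± 3.76 and was separate from Csf2rb2 (75.6 ± 6.40) below it. Il3ra (14.4 ± 0.679) stood above Csf3 (8.18 ± 0.772) there, the reverse of LNP-GFP, and in both groups the libraries of these genes did not overlap.

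**Figure D3:**
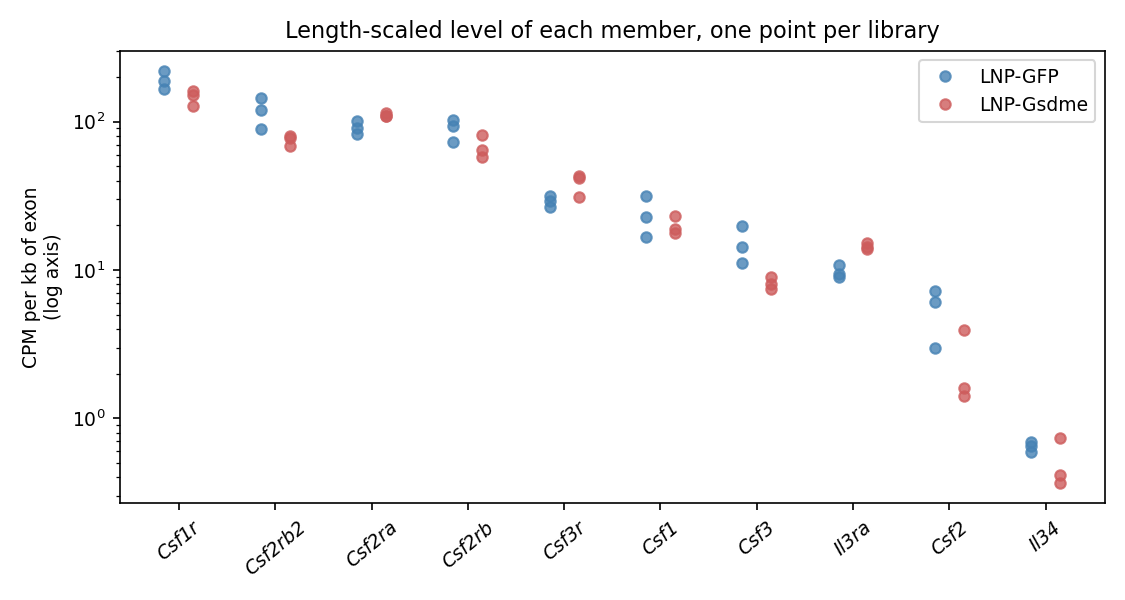
Length-scaled level of each member (log axis, CPM per kb of merged exon), 1 point per library, ordered by the LNP-GFP mean. The receptor genes Csf1r, Csf2rb2, Csf2ra and Csf2rb lie highest, and Il34 is below 1 in all libraries.

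The order depends on the gene length. The deposited FPKM use lengths that exceed the whole gene span for 899 of 11356 genes with over 50 counts in each library, Csf2ra among them (6168 bases for a span of 4473). In deposited FPKM Csf2ra therefore stood lower in LNP-GFP, at 42.5 ± 4.17 (SD, n = 3), below Csf2rb at 58.8 ± 10.1, with no overlap between them. Comparisons of 1 gene between the groups are not touched by its length.

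Csf1r, the receptor of CSF1 and IL-34 (chromosome 18, 61233670 to 61265221, GRCm39), was lower in LNP-Gsdme but did not pass the test. The LNP-GFP libraries gave 1262, 982 and 1089 CPM in replicate order, the LNP-Gsdme libraries 941, 872 and 713 CPM. All LNP-Gsdme libraries lay below all LNP-GFP libraries, though LNP-Gsdme 1 came close to LNP-GFP 2. In log2 terms the change was -0.40 ± 0.14 (SE, n = 3 per group; 95% interval -0.73 to -0.07; edgeR adjusted p = 0.104). By DESeq2 it passed (adjusted p = 0.0480). Over the alternatives the adjusted p ran from 0.0480 to 0.230. Summed macrophage markers, 8 genes led by Apoe and C1qb, came to 5818, 3813 and 5093 CPM with LNP-GFP, in replicate order. With LNP-Gsdme they came to 3838, 4077 and 3775 CPM. Of the 8, Apoe fell (1342 to 589 CPM on average) and 7 did not pass, among them C1qb with a log2 fold change of 0.00; the median was -0.23. The part of macrophages in the Csf1r values was not tested. The span of Csf1r overlaps that of Hmgxb3, whose counts came to 3.40% of those of Csf1r.

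Il3ra, the alpha chain that binds IL-3 (chromosome 14, 8113752 to 8123488), rose 1.45-fold. Its CPM values, in replicate order, were 32.2, 27.3 and 28.3 with LNP-GFP and 41.6, 44.9 and 40.8 with LNP-Gsdme. The lowest LNP-Gsdme library was well above the highest LNP-GFP library. On the log2 scale the difference was 0.54 ± 0.09 (SE, n = 3 per group; 95% interval 0.31 to 0.76; edgeR adjusted p = 0.0220). Leaving out LNP-GFP 3 ended the call (adjusted p = 0.110), as did leaving out LNP-Gsdme 1 (0.0908) or LNP-Gsdme 2 (0.0948), and the adjusted p over all alternatives spanned 0.000246 to 0.110. Human plasmacytoid dendritic cells are known for high levels of the IL-3 receptor, and whether those of these mice have them was not examined. The 6 mouse markers of this cell type summed to 218 to 251 CPM in LNP-GFP and 481 to 501 CPM in LNP-Gsdme. Of these 6, 1 rose and 1 fell, with a median log2 fold change of -1.06. Most of the sum was Bst2, which monocytes can also express and interferon is known to induce (185 to 238 CPM and 469 to 489 CPM). The next, Ccr9, stood at 6.28 to 18.5 CPM in LNP-GFP and 4.05 to 4.28 CPM in LNP-Gsdme. Mast cells and basophils carry the receptor too, and their 8 markers, led by Gata2 and Tpsb2, summed to 4.14 to 5.49 CPM in LNP-GFP and 2.68 to 3.40 CPM in LNP-Gsdme. The part of these cells in the Il3ra values was not tested.

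Csf2ra, the alpha chain that binds GM-CSF (chromosome 19, 61212395 to 61216867), was slightly higher in LNP-Gsdme and did not pass. The LNP-GFP libraries gave 289, 243 and 263 CPM in replicate order, the LNP-Gsdme libraries 316, 330 and 302 CPM. The groups did not overlap, but LNP-GFP 1 came close to LNP-Gsdme 3. The fitted log2 fold change came to 0.25 ± 0.09 (SE, n = 3 per group; 95% interval 0.05 to 0.46; edgeR adjusted p = 0.104). It passed once LNP-GFP 1 was left out (0.33, adjusted p = 0.0389), and the adjusted p over all alternatives spanned 0.0389 to 0.281.

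Both alpha chains were higher in LNP-Gsdme, so the sequences before their start sites are shown for comparison, with that of the beta chain Csf2rb2, whose groups separated the other way. They are the 250 bases upstream of the RefSeq start (GRCm38.p6, a different build from that of the counts), 5′ to 3′ on the gene's strand, at chr19:61228419-61228668 (minus), chr14:14346245-14346494 (plus) and chr15:78305722-78305971 (minus). Capitals mark matches on either strand to GAGGAA, the core bound by the myeloid factor PU.1, and to TTCNNNGAA, the palindrome bound by STAT factors; the matches do not overlap those of the other motif.
Csf2ra: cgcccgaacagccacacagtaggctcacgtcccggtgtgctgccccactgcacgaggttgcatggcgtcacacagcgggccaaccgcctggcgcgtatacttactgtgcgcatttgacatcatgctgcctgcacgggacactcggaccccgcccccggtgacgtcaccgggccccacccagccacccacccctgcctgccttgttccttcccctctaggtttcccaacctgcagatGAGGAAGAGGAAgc
Il3ra: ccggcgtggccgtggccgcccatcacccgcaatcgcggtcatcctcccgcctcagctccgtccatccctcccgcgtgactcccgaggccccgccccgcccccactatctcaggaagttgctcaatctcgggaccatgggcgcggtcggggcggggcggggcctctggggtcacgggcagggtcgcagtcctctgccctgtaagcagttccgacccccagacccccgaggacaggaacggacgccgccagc
Csf2rb2: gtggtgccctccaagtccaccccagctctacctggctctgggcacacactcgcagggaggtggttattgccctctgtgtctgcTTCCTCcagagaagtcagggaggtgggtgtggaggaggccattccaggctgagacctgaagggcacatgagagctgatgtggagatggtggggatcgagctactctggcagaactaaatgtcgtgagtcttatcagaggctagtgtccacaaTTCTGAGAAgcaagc

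The Csf2ra window holds 2 adjoining matches to GAGGAA next to its start, and the Il3ra window holds none of either motif. Of all 32851 windows of that length in the table, 23.3% held GAGGAA and 7.0% held TTCNNNGAA. The table has entries for 6 members (Csf1, Csf2, Csf2ra, Csf2rb2, Csf3r and Il3ra), of which 3 held GAGGAA (Csf2ra, Csf2rb2 and Csf3r) and 1 held TTCNNNGAA (Csf2rb2). The interferon-stimulated response element, searched on both strands as GAAA, any 2 bases and GAAA, was found in 3.0% of all windows and in none of those 6. A match is a run of letters and was not tested for binding.

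The beta chain genes lie 20030 bases apart on chromosome 15 (Csf2rb2 at 78166707 to 78189921 and Csf2rb at 78209952 to 78238047). Csf2rb2, the IL-3-specific chain, was lower in LNP-Gsdme with groups that did not overlap, and did not pass. Its CPM values, in replicate order, were 424, 696 and 578 with LNP-GFP and 386, 369 and 313 with LNP-Gsdme. LNP-GFP 1 lay near the LNP-Gsdme libraries and LNP-GFP 2 far above them. In log2 terms the change was -0.67 ± 0.19 (SE, n = 3 per group; 95% interval -1.12 to -0.22; edgeR adjusted p = 0.0650). It passed with LNP-GFP 1 left out (-0.83, adjusted p = 0.0171) and by DESeq2 (0.00753), and the adjusted p over all alternatives spanned 0.00753 to 0.190. Csf2rb, the chain shared by GM-CSF, IL-3 and IL-5 receptors, had LNP-GFP values of 527, 762 and 690 CPM and LNP-Gsdme values of 475, 588 and 404 CPM. Its groups overlapped, since LNP-Gsdme 2 lay above LNP-GFP 1. Its fitted log2 fold change came to -0.43 ± 0.18 (SE, n = 3 per group; 95% interval -0.87 to 0.01; edgeR adjusted p = 0.164).

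The pair are close copies, so their reads could have been split between them, and their counts are uncertain to that degree. In GENCODE M21 transcripts (GRCm38), the coding sequences of Csf2rb (2691 bases) and Csf2rb2 (2637 bases) were identical at 92.9% of 2697 aligned positions, with an identical run of up to 242 bases. Of all windows of 50 bases in the Csf2rb transcript, 18.4% also occurred in a Csf2rb2 transcript, and of windows of 100 bases 7.0%. From Csf2rb2 to Csf2rb these shares were 19.0% and 7.2%. The stretch of 60 coding bases that differs most, with 13 differing bases in capitals, shows where reads tell the genes apart (coding bases 304 to 363 of Csf2rb and 307 to 366 of Csf2rb2, counted from the start codon).
Csf2rb: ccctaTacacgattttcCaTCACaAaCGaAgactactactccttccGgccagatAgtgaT
Csf2rb2: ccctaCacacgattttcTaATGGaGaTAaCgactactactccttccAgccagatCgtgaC

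Counted together, Csf2rb2 made up 44.6, 47.7 and 45.6% of both beta chains' counts in LNP-GFP 1 to 3 and 44.8, 38.6 and 43.6% in LNP-Gsdme 1 to 3. The groups overlapped, with LNP-Gsdme 2 the lowest library, and the mean shares differed by -3.61 percentage points (exact permutation test, two-sided, p = 0.2; 3 against 3 allows no less than 0.1). Without LNP-Gsdme 2 the difference was -1.73 points. The level of Csf2ra relative to both beta chains, as a ratio of deposited FPKM, was 0.452, 0.245 and 0.308 for LNP-GFP, in replicate order. For LNP-Gsdme it was 0.545, 0.525 and 0.628. Every LNP-Gsdme library was above every LNP-GFP library, with means of 0.335 ± 0.106 and 0.566 ± 0.0545 (SD, n = 3; p = 0.1 by an exact two-sided permutation test, which can give no less). With merged exon lengths the mean ratios were 0.460 and 0.780 in the same order. The sum of beta chains includes Csf2rb2, whose product serves IL-3 alone and so is not a partner of Csf2ra. Csf2rb2 was the larger part of that sum in LNP-GFP, with a mean FPKM of 74.0 against 58.8 for Csf2rb. A ratio to Csf2rb alone was not tested. The ratio is made of the same member values as above and is no separate evidence.

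Csf3r, the G-CSF receptor (chromosome 4, 125918343 to 125938233), had 115, 97.6 and 106 CPM in LNP-GFP 1 to 3. It had 152, 155 and 108 CPM in LNP-Gsdme 1 to 3. LNP-Gsdme 1 and 2 lay above all LNP-GFP libraries, while LNP-Gsdme 3 lay among them. On the log2 scale the difference was 0.38 ± 0.15 (SE, n = 3 per group; 95% interval 0.01 to 0.74; edgeR adjusted p = 0.146). Without LNP-Gsdme 3 it was 0.53 and passed (adjusted p = 0.0264), and the adjusted p over all alternatives spanned 0.0264 to 0.361. Neutrophils are the cells best known for this receptor. Their 10 markers, led by S100a9 and Mmp8, summed to 78.0, 353 and 209 CPM with LNP-GFP, replicates 1 to 3, and 306, 157 and 137 CPM with LNP-Gsdme. LNP-GFP 2 had the highest of these sums and the lowest Csf3r value, while LNP-Gsdme 3 had the lowest sum and the lowest Csf3r value of its group. The part of neutrophils in the Csf3r values was not tested.

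Csf3, which encodes G-CSF (chromosome 11, 98592089 to 98594455), fell 1.88-fold. The LNP-GFP libraries gave 15.7, 28.5 and 20.5 CPM in replicate order, the LNP-Gsdme libraries 10.7, 11.3 and 12.3 CPM. The LNP-Gsdme libraries were close together, and the LNP-GFP libraries were spread above them. The fitted log2 fold change came to -0.91 ± 0.22 (SE, n = 3 per group; 95% interval -1.44 to -0.38; edgeR adjusted p = 0.0465). This call sat just inside the threshold. It ended when any of 5 libraries was left out, namely LNP-GFP 2 (-0.65, with an adjusted p of 0.0649), LNP-GFP 3 (0.145), LNP-Gsdme 1 (0.153), LNP-Gsdme 2 (0.148) or LNP-Gsdme 3 (0.0688). It ended as well by limma-voom (0.0609) and with library sizes alone (0.0501), and the adjusted p over all alternatives spanned 0.00270 to 0.153.

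Csf2, which encodes GM-CSF (chromosome 11, 54138097 to 54140493), had only 18 to 129 counts per library. Its CPM values, in replicate order, were 2.40, 5.91 and 4.90 with LNP-GFP and 1.29, 1.12 and 3.04 with LNP-Gsdme. LNP-Gsdme 3 lay above LNP-GFP 1, so the groups overlapped. In log2 terms the change was -1.26 ± 0.49, with a wide 95% interval of -2.42 to -0.09 (SE, n = 3 per group; edgeR adjusted p = 0.136). Activated T and NK cells are known makers of GM-CSF. Their summed markers were 760, 203 and 475 CPM with LNP-GFP, replicates 1 to 3, and 960, 844 and 699 CPM with LNP-Gsdme. These sums overlapped between the groups. Of the 9 markers tested, 1 rose and 8 did not pass, where 6.30% of all genes tested rose. The part of T and NK cells in the Csf2 values was not tested.

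Csf1, which encodes M-CSF (chromosome 3, 107648364 to 107667785), did not differ beyond the spread between libraries. The LNP-GFP libraries gave 87.7, 169 and 121 CPM in replicate order, the LNP-Gsdme libraries 101, 93.4 and 118 CPM. All LNP-Gsdme libraries lay within the LNP-GFP range. On the log2 scale the difference was -0.27 ± 0.23 (SE, n = 3 per group; 95% interval -0.83 to 0.29; edgeR adjusted p = 0.453), and without LNP-GFP 2 it was 0.01. Il34 (chromosome 8, 111468461 to 111532556), the other CSF1R ligand, was barely detected, with 13 to 31 counts per library. Its CPM values, in replicate order, were 1.35, 1.19 and 1.30 with LNP-GFP and 0.730, 0.811 and 1.39 with LNP-Gsdme. LNP-Gsdme 3 was the highest of all libraries, and the fitted log2 fold change came to -0.38 ± 0.30 (SE, n = 3 per group; 95% interval -1.09 to 0.34; edgeR adjusted p = 0.416).

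Fibroblasts are known sources of Csf1, Csf3 and Il34, and their markers differed between the groups in the same direction as Csf3. The summed fibroblast markers were 9043, 10114 and 9555 CPM with LNP-GFP, replicates 1 to 3, and 2920, 2154 and 5602 CPM with LNP-Gsdme, and 5 of the 8 fell. LNP-Gsdme 3, the LNP-Gsdme library with the most fibroblast RNA, also had the highest Csf1, Csf2, Csf3 and Il34 of its group. LNP-Gsdme 1 had more fibroblast RNA than LNP-Gsdme 2, with higher Csf1 and Csf2 but lower Csf3 and Il34. The melanoma markers were 324, 1752 and 1054 CPM with LNP-GFP, replicates 1 to 3, and 124, 170 and 724 CPM with LNP-Gsdme, and 0 of the 7 passed. Their order in LNP-GFP, lowest in replicate 1 and highest in replicate 2, was also that of Csf1, Csf2 and Csf3. It was not particular to these ligands or to melanoma markers, since Csf2rb, Csf2rb2 and the summed fibroblast and neutrophil markers had it too. Il34 had the reverse order, highest in replicate 1 and lowest in replicate 2. A gate on CD11b+ cells is meant to leave out both fibroblasts and melanoma cells. The part of these cells in the ligand values was not tested.

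**Figure D4:**
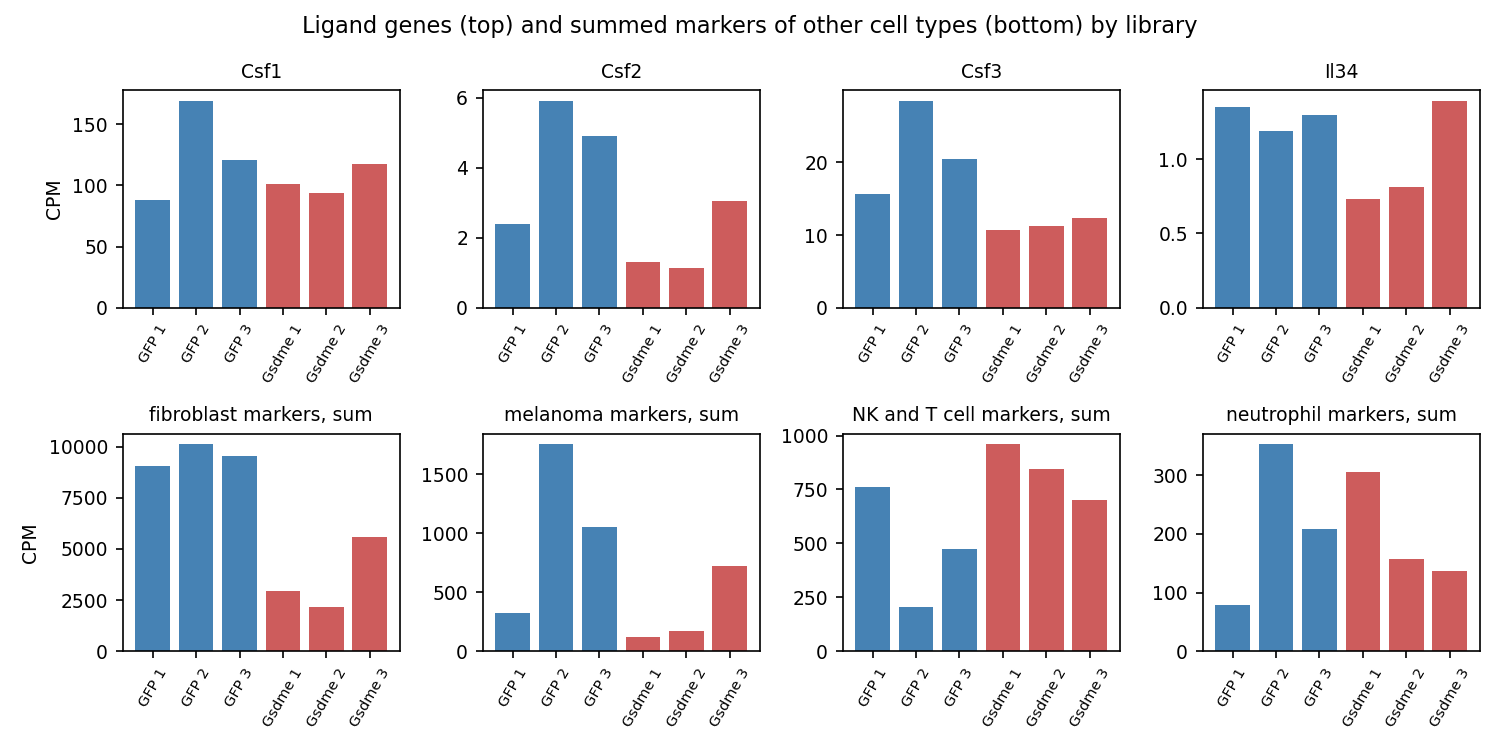
CPM of the 4 ligand genes (top) and summed CPM of the markers of 4 other cell types (bottom) in each library, as bars from 0; blue is LNP-GFP and red LNP-Gsdme. LNP-GFP 2 has the highest Csf1, Csf2, Csf3, fibroblast, melanoma and neutrophil values and the lowest Il34 of its group. The neutrophil sums of the groups overlap.

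The LNP-GFP libraries differed among themselves in a shared order. For all 10 members LNP-GFP 3 lay between LNP-GFP 1 and LNP-GFP 2, as was the case for 61.9% of all genes tested. Csf1r, Csf2ra, Il3ra, Csf3r and Il34 were highest in LNP-GFP 1, and Csf2rb, Csf2rb2, Csf1, Csf2 and Csf3 were highest in LNP-GFP 2. For every member but Csf1r and Il34, LNP-GFP 1 was the control closest to the LNP-Gsdme mean. Without LNP-GFP 3 no member was called, nor without LNP-Gsdme 1 or LNP-Gsdme 2 (edgeR, the only tool run on fewer libraries). At an unadjusted p below 0.05 there were 3, 4 and 4 members in those fits, against 7 with all libraries. The share of all genes at that unadjusted cutoff was not counted, so these member counts have no background beside them. Over all genes tested, 88, 153 and 187 were called in those fits, against 1859 with all libraries. Without LNP-GFP 1, 4 members were called (Il3ra, Csf2ra, Csf2rb2 and Csf3), beside 2841 genes, or 17.4% of those tested. Without LNP-Gsdme 3, 2 members were called (Il3ra and Csf3r), beside 2131 genes, or 12.9%.

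Around the receptors and ligands, 6 lists of 77 genes were read from the same fit, of which 74 were tested. In all, 12 rose and 7 fell, or 25.7% called against 11.6% of all genes tested. The lists were chosen with earlier results of these data known, so a share above that of all genes carries no test. The median log2 fold change was -0.01, as over all genes. Without LNP-GFP 3, or without LNP-Gsdme 1, none of the 74 was called by edgeR, and without LNP-Gsdme 2 there were 4. At an unadjusted p below 0.05, 32 were left without LNP-GFP 3 and 35 without LNP-Gsdme 1, against 41 with all libraries (edgeR). The share of all genes at that unadjusted cutoff was not counted. Jak2, Pik3cd, Fes, Stat5a, Stat5b, Cish, Cd209a, Plau and Spi1 are named below outside the rule for named genes, after their values were seen.

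Of 26 genes for signalling proteins directly below the receptors, 4 rose and 22 did not pass, with a median log2 fold change of 0.05. Over all genes tested, 6.30% rose and 11.6% were called in either direction. Ptpn6, the phosphatase SHP-1 that dampens cytokine receptor signals, rose from 128 ± 29.8 to 281 ± 54.3 CPM (SD, n = 3; edgeR adjusted p = 0.0258). Also among those that rose were Pik3cd, a catalytic subunit of PI3-kinase, and Fes, a myeloid tyrosine kinase, with log2 fold changes of 0.98 and 0.52. Jak2, the kinase bound to the beta chains, had a log2 fold change of -0.20 (edgeR adjusted p = 0.159). Stat5a and Stat5b, which carry the signal to the nucleus, had values of opposite sign, -0.53 and 0.37, that did not pass (adjusted p = 0.0511 and 0.0502).

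Among 11 STAT5 and feedback targets of cytokine receptors, Osm and Socs1 rose and 9 did not pass, with a median of 0.18. Of all genes tested, 6.30% rose. Osm, a cytokine gene that STAT5 is known to activate, rose from 122 ± 18.2 to 215 ± 8.97 CPM (SD, n = 3; edgeR adjusted p = 0.0137). Socs1, a feedback inhibitor that interferons also induce, rose from 62.4 ± 4.65 to 110 ± 20.2 CPM (SD, n = 3; edgeR adjusted p = 0.0216). Cish, the classical STAT5 target, had a log2 fold change of -0.28 (adjusted p = 0.479).

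Of 9 genes that GM-CSF is known to induce in myeloid cells, 3 fell and 6 did not pass, where 5.32% of all genes tested fell, with a median log2 fold change of -0.58. Ccl22, a chemokine gene, fell from 37.1 ± 7.94 to 11.6 ± 2.49 CPM (SD, n = 3; edgeR adjusted p = 0.0116), and Mgl2, a lectin gene, fell from 7.14 ± 0.592 to 3.05 ± 0.653 CPM (adjusted p = 0.0182). The third was Cd209a, also a lectin gene, with a log2 fold change of -2.90. All 3 are expressed by dendritic cells as well. Markers of conventional dendritic cells summed to 131 to 170 CPM in LNP-GFP and 73.0 to 110 CPM in LNP-Gsdme. They were 8 genes led by Ccr7 and Flt3 and including Cd209a. Most of the sum was Ccr7 (91.8 to 135 CPM and 55.1 to 85.1 CPM), which did not pass (edgeR adjusted p = 0.0684). Of the 8, 3 fell, Cd209a among them, and 5 did not pass, with a median log2 fold change of -0.87. The part of dendritic cells in these falls was not tested.

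Of 14 macrophage genes tied to CSF1 signalling, 3 rose, 2 fell and 9 did not pass, with a median log2 fold change of 0.00. Over all genes tested, 6.30% rose and 5.32% fell. Mertk, a receptor for dying cells, rose from 20.6 ± 1.10 to 31.3 ± 2.69 CPM, and Maf, a macrophage transcription factor, from 153 ± 17.9 to 225 ± 17.2 CPM (SD, n = 3; edgeR adjusted p = 0.0197 and 0.0282). The third was Plau, the urokinase gene, with a log2 fold change of 0.64. Timd4 and Cd163, receptors of resident macrophages, fell from low levels of 1.17 ± 0.201 and 4.39 ± 1.64 CPM to 0.208 ± 0.0656 and 1.29 ± 0.334 CPM (SD, n = 3; edgeR adjusted p = 0.0126 and 0.0289).

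Of 8 transcription factors known to act on these receptor genes, Klf4 and Cebpb rose and Cebpd fell, where 11.6% of all genes tested were called. Cebpb went from 370 ± 35.4 to 472 ± 9.16 CPM and Klf4 from 205 ± 21.8 to 293 ± 11.2 CPM, while Cebpd went from 18.4 ± 1.13 to 13.1 ± 1.47 CPM (SD, n = 3; edgeR adjusted p = 0.0478, 0.0248 and 0.0433). Spi1, which encodes PU.1, had a log2 fold change of 0.12 (adjusted p = 0.479). Among the 6 related receptors and ligands tested, 1 rose and 1 fell, beside the same 11.6% of all genes called. Flt3l, the growth factor of dendritic cells, rose from 4.50 ± 0.641 to 9.83 ± 1.07 CPM. Kit, the stem cell factor receptor and a kinase of the same class as CSF1R, fell from 18.1 ± 1.72 to 10.2 ± 2.37 CPM (SD, n = 3; edgeR gave adjusted p = 0.0139 and 0.0356 for this pair). Il3, Il5 and Il5ra were too low to be tested, and Il3 had no count in any library, which allows up to 0.131 to 0.188 CPM per library (3 counts of its total, counting error only), so the ligand of Il3ra was not detectable at this depth.

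**Figure D5:**
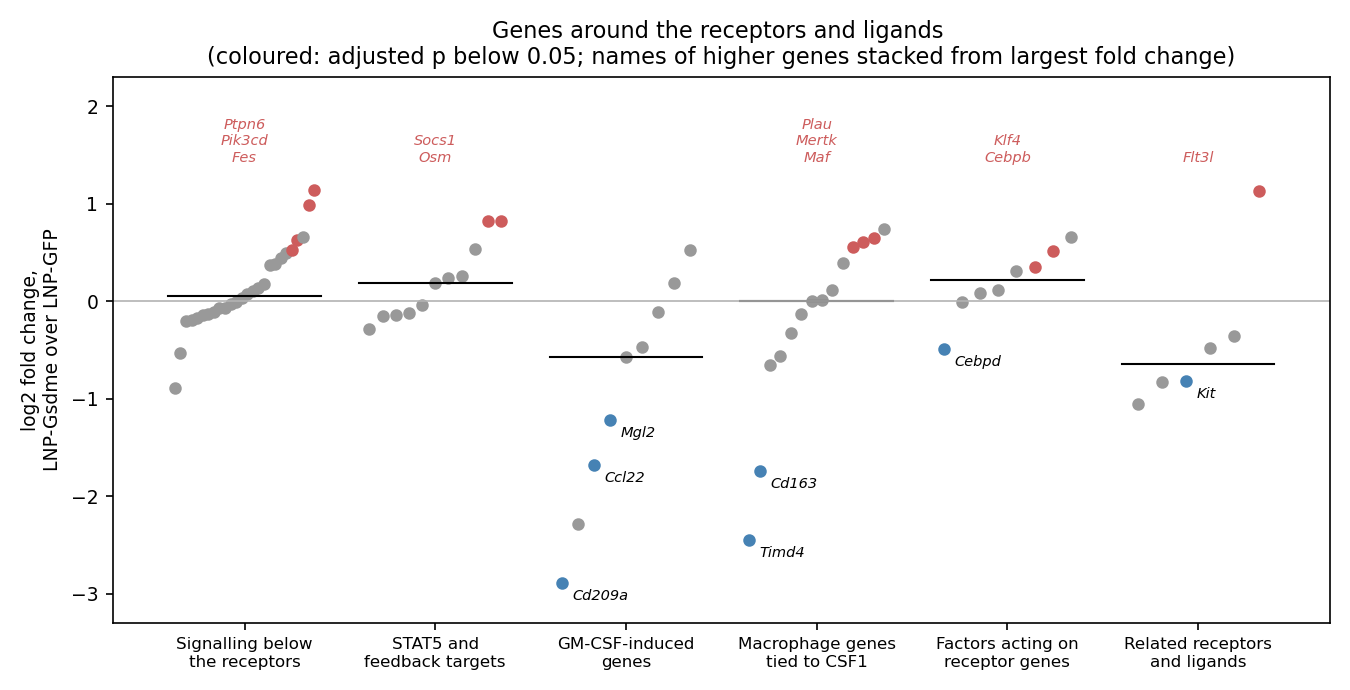
Log2 fold change (y axis, LNP-Gsdme over LNP-GFP) of each tested gene in the 6 lists; red and blue points passed the test, grey points did not, black lines are list medians, and names are those of genes given in the text. The GM-CSF-induced genes have the lowest called value (Cd209a, -2.90), and the signalling list has 4 called genes, all higher.

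The genes most like 4 of the members over the 6 libraries were found by the Pearson correlation of log2 CPM among 8420 genes, as a description of shared library order. They were Lipa (r = 0.992) and Brk1 (0.991) for Csf1r, and Ankrd33b (0.998) and Uqcr10 (0.995) for Csf2rb. For Csf3r they were AI597479 and Rnf215 (both 0.997), and for Csf1 Sf3b4 (0.994) and Cdk2 (0.991). With 6 libraries in 2 groups and so many genes, values this close to 1 carry no test.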

How the data were processed

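The members and gene lists were chosen with earlier results of these data known. The authors deposited raw counts and FPKM per gene for 6 libraries, per the file headers, on GRCm39, per the submitters' processing notes; the sources used here do not give aligner, counting tool, strand setting or annotation. TruSeq libraries were paired-end, per the labels' protocols. The deposited FPKM are counts over 1 fixed length per gene and the library total (implied lengths differed by at most 0.00178% between libraries over 11356 genes). They served only for levels and ratios. Levels per kb used merged exons of GENCODE M21.

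Counts were tested in R 4.3.3 with edgeR 4.0.16 (filterByExpr, TMM factors 0.980 to 1.04, robust quasi-likelihood, coefficient of variation 0.193), which left 16010 genes, all 10 members among them, with Benjamini-Hochberg adjustment. The functions were tested on simulated data. SE and intervals come from the quasi-likelihood F. The alternatives were DESeq2 1.42.0, limma-voom (limma 3.58.1), other normalizations and filters, no robust fitting, the replicate block, stricter thresholds and each library left out. CPM are over the tested genes' totals times the TMM factors. The rule named all members, the 2 called genes with the smallest p per list and direction, the 2 most abundant markers per list, and the 2 genes most like Csf1r, Csf2rb, Csf3r and Csf1; 1 gene that the rule names is not reported here. The groups of libraries follow the treatment label. Members had 13 to 28928 counts per library.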

Additional observations from a re-analysis of the deposited data

How the results depend on the processing

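Over 15 alternatives for each of the 10 members, 9 members kept their direction throughout; of the 150 values, 132 also kept their side of the threshold, 12 lost the call and 5 gained it. Csf1 turned from -0.27 to 0.0056 (log2) without LNP-GFP 2, and ran from -0.47 to 0.0056 over the libraries left out. DESeq2 gave 1543 genes higher and 1505 lower (edgeR 1008 and 851), 3 members lower in place of 1, and 11 called signalling genes in place of 4, 7 GM-CSF-induced genes in place of 3, 5 receptor factors in place of 3 and 4 relatives in place of 2. With limma-voom, and with library sizes alone, 0 members were lower, and with no low-count filter 1 receptor factor was called. At an adjusted p below 0.01, 131 genes were higher and 52 lower, with 0 members in either direction and 0 genes called in each of the 6 pathway lists. With a 2-fold minimum, 226 genes were higher and 288 lower, and 0 members passed in either direction. The lists then held 1 signalling gene, 0 STAT5 targets, 3 GM-CSF-induced genes, 2 macrophage genes, 0 factors and 1 relative. Leaving out 1 library gave 64 to 1625 genes higher, 24 to 1216 lower, 0 to 2 members higher and 0 to 2 lower. The called genes then ran from 0 to 10 (signalling), 0 to 3 (STAT5 targets), 0 to 5 (GM-CSF-induced), 0 to 6 (macrophage), 0 to 4 (factors) and 0 to 3 (relatives). The Csf2rb2 share differed by -4.85 to -1.73 percentage points and the Csf2ra ratio by 0.187 to 0.290. The cause of these shifts was not tested. Merged exon lengths were added after seeing the data. Depth limits Csf2 and Il34 most.

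Replicate numbers are shared between the groups, but the samples share only a number. Same-numbered libraries correlated at 0.214, -0.237 and 0.031 in their deviations from the group means, and LNP-GFP 2 correlated best with LNP-Gsdme 3. Without the replicate block edgeR called 2 members, beside 1859 genes, or 11.6% of those tested. DESeq2, run only without the block, called 4 members, beside 3048 genes, or 21.1%. With the block, 103 genes were higher and 52 lower by edgeR, and 0 members were called. There were 6 members at an unadjusted p below 0.05, and the share of all genes at that cutoff was not counted. Il3ra had an adjusted p of 0.0771 and Csf3 of 0.0808 with the block (edgeR). The lists held 0 signalling genes, 0 STAT5 targets, 1 GM-CSF-induced gene, 0 macrophage genes, 0 factors and 0 relatives.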
